A study of Mus musculus with 12 samples.

Results

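Cdkn1a and 9 other genes that p53 is known to switch on (Mdm2, Ccng1, Trp53inp1, Phlda3, Sesn1, Bbc3, Bax, Gadd45a and Zmat3) were followed in mouse pancreatic islets. They are the rows of the gene count table that carry these symbols, 10 of 24421 genes, and all 10 passed the filter on low counts. In knockout islets 24 h after the beta-cell toxin streptozotocin (STZ), Cdkn1a, Phlda3, Ccng1 and Trp53inp1 stood at their highest levels of the 6 groups, whereas in control islets STZ lowered Cdkn1a, Trp53inp1 and Sesn1 and raised none of the 10 past the threshold. Sesn1 and Gadd45a were instead raised in knockout islets at 4 wk. Zmat3 passed the threshold only as lower, in knockout islets at 4 wk, and that call depended on the fit and the scaling. By the deposited counts, Mdm2, Bax and Bbc3 passed the threshold in no comparison.

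p53 is a transcription factor that is held low by the ubiquitin ligase MDM2 and is stabilised when DNA is broken or a cell is otherwise stressed. It then binds a response element made of 2 half-sites and raises genes for cell cycle arrest, for DNA repair and antioxidant defence, for cell death, and for its own inhibition. STZ enters beta cells through the glucose transporter GLUT2 and alkylates DNA, and p21, the product of Cdkn1a, restrains beta-cell proliferation.

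RNA was sequenced from whole islets in 12 libraries, which form 6 groups of 2 (lettered A and B). Control mice were Bmal1fl/fl, with both alleles of the clock gene Bmal1 (Arntl) floxed, and knockout mice were Bmal1fl/flRIPCreERT/+, named β-Bmal1-/- by the series. They carry in addition 1 allele of Cre fused to an oestrogen receptor under the rat insulin promoter, which is active in beta cells and depends on tamoxifen; floxed alleles are thus common to all groups, and no group carries the Cre without them. Each genotype was sampled 24 h after citrate buffer (vehicle), 24 h after a submaximal STZ dose and 4 wk after STZ. All vehicle libraries used here are labelled 24 h, so in a comparison of 4 wk with vehicle the effects of treatment and of time cannot be told apart. The labels give neither the age of the mice nor whether A and B are separate animals, so p-values measure only how far these libraries spread, and that spread may be technical.

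The RefSeq promoter table (GRCm38.p6, 250 bases before to 50 after each start) held 12 windows for 8 of the 10 genes; Trp53inp1 and Zmat3 were not matched. The p53 half-site consensus was searched as 3 purines, a C, 2 bases that are A or T, a G and 3 pyrimidines, a motif that reads the same on both strands. It occurred in 6 of the 12 windows, in those of Cdkn1a, Ccng1, Mdm2, Bax, Gadd45a and Sesn1, against 8.36% of all 32851 windows. A run of 2 half-sites side by side with at most 1 of the 20 bases off the consensus, a search chosen after the Cdkn1a window had been seen, occurred in 29 of all windows (0.0883%), and 2 of the 29 belonged to Cdkn1a and Ccng1. An exact search, for 2 half-sites at most 13 bases apart, matched 24 of all windows (0.0731%) and 1 of the members' 12. The sequences below are shown because Cdkn1a and Ccng1 were the genes among the 10 with such a run and both were raised in knockout islets after STZ, while Mdm2 had 1 half-site in its window. Phlda3, also raised in knockout islets 24 h after STZ, had no half-site in its window. Bax, Gadd45a and Sesn1 had a half-site and were not raised past the threshold against control at that time. The Sesn1 half-site lay in the window of its downstream start, whose first exon had at most 0.137 CPM in any library. The window of its upstream start had no half-site. Capitals mark the run or the half-site, which starts 51 bases before the upstream start that the RefSeq table gives for Cdkn1a (a start a few bases before that of the deposited annotation), 195 before that of Ccng1 and 186 before that of Mdm2. The printed Cdkn1a stretch also holds an exact half-site at chr17:29090906-29090915, which is left in lower case.
Cdkn1a, chr17:29090898-29090977, plus strand: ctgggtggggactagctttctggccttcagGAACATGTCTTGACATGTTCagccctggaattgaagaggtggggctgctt
Ccng1, chr11:40755432-40755511, minus strand: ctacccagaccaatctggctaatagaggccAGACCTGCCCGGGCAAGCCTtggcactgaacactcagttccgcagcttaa
Mdm2, chr10:117710920-117710959, minus strand: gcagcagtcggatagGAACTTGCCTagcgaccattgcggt
The base off the consensus is position 11 of the Cdkn1a run and position 5 of the Ccng1 run, counted from 1 at the 5′ end of the capitals. These matches describe letters in the windows and are not measured binding.

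Total estimated counts were 101772241 to 127207523 a library. Levels are given as CPM (counts scaled to a common library size) on library sizes scaled with TMM. TMM takes most genes as unchanged between libraries and does not remove differences in their cell types. Arntl, the targeted gene, stood at 8.79 and 8.37 CPM in control and 17.8 and 19.9 CPM in knockout under vehicle, at 11.2 and 10.8 against 8.88 and 9.43 CPM at STZ 24 h, and at 20.6 and 20.4 against 11.3 and 11.6 CPM at STZ 4 wk. Its summed level was thus lower in knockout after STZ and higher under vehicle; this sum also counts exons outside the floxed part, whose position the labels do not give. In all 3 conditions, 1 of its 20 exons, the eighth in map order (158 bases), had 1.56 to 2.00 times the mean depth of the gene in control libraries and 0.624 to 1.36 times in knockout libraries. Libraries A and B differed from each other in step with the GC content of genes: across 12700 genes the gap between B and A correlated with GC at -0.69 to 0.77 in the 6 groups, as a description over genes that are not independent. Markers of other tissues set the knockout STZ 24 h libraries apart. Summed CPM of 12 beta-cell markers was 22760 to 25330 there and at least 46780 in every other group, of 14 macrophage markers 2028 to 2039 against at most 572, of 11 lymphocyte markers 359 to 360 against at most 35.3, and of 10 liver markers 16140 to 16530 against at most 6241. Acinar markers moved between groups as well, from 86560 CPM in knockout vehicle to 383600 in control vehicle, with 375100 to 379000 in knockout STZ 24 h. In such bulk samples, fewer cells of a type and less RNA per cell cannot be told apart, and the part of these shifts in the results on the 10 genes was not tested.

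Cdkn1a (chr17:29090986-29100722, mm10, plus strand) encodes p21, which stops the cell cycle by inhibiting cyclin-dependent kinases. Under vehicle it stood at 44.2 and 42.7 CPM in control and at 42.3 and 38.9 CPM in knockout libraries. At 24 h after STZ it was 23.7 and 22.9 CPM in control and 161 and 155 CPM in knockout, and at 4 wk it was 25.3 and 27.4 CPM in control and 76.4 and 82.6 CPM in knockout. The knockout libraries were thus above every control library at both times after STZ, and STZ moved the gene in opposite directions in the 2 genotypes. Relative to control, knockout islets had 6.78-fold more Cdkn1a at 24 h (log2 2.76 ± 0.10 SE, adjusted p = 8.32e-07 in edgeR's quasi-likelihood test, both libraries higher) and 3.01-fold more at 4 wk (log2 1.59 ± 0.10, adjusted p = 6.97e-06). Under vehicle the difference was -0.10 ± 0.10 on the log2 scale (adjusted p = 0.733).

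Within genotypes, Cdkn1a fell 1.86-fold at 24 h in control (log2 -0.90 ± 0.10, adjusted p = 0.000404) and rose 3.89-fold in knockout (log2 1.96 ± 0.10, adjusted p = 5.98e-07). The same test of the difference between genotypes gave 2.86 ± 0.14 on the log2 scale (adjusted p = 1.67e-06). At 4 wk it was 1.65-fold below vehicle in control (log2 -0.72 ± 0.10, adjusted p = 0.0016) and 1.96-fold above vehicle in knockout (log2 0.97 ± 0.10, adjusted p = 6.48e-05), a difference of 1.69 ± 0.14 (adjusted p = 3.01e-05). From 24 h to 4 wk the knockout level came down 1.99-fold (log2 -0.99 ± 0.10, adjusted p = 0.000104) and stayed above vehicle, while in control the difference was 0.18 ± 0.10 (adjusted p = 0.517). The calls on Cdkn1a held with any 1 library left out.

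**Figure D1:**
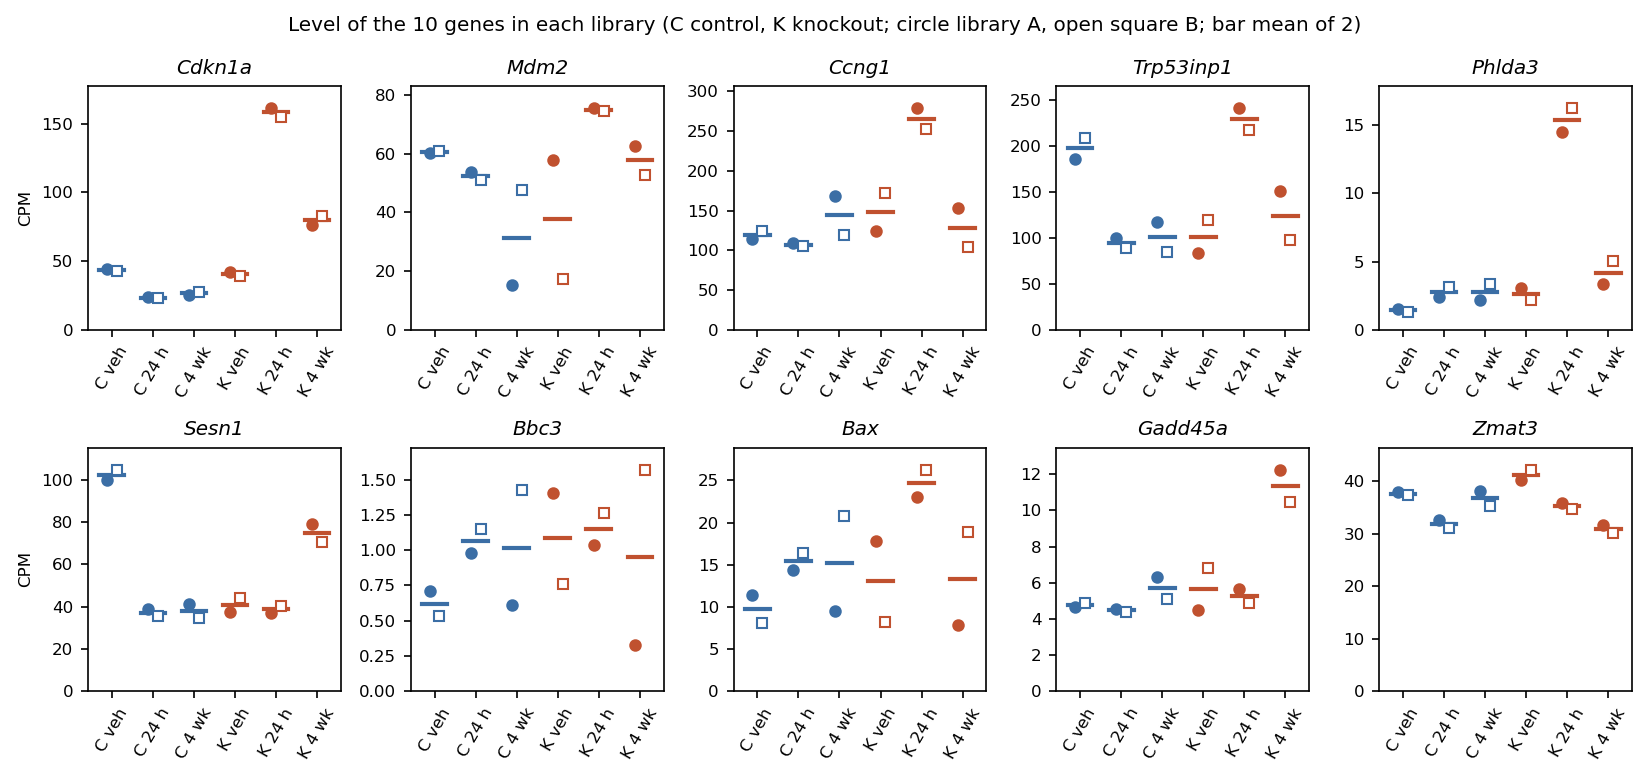
Level of each of the 10 genes in CPM (vertical axes from 0) in control (C, blue) and knockout (K, red) islets under vehicle and 24 h and 4 wk after STZ; circles are library A, open squares library B and bars the mean of 2. Cdkn1a sits at 155 and 161 CPM in knockout STZ 24 h and at no more than 82.6 CPM elsewhere, and Bbc3, Bax and 2 Mdm2 libraries show wide gaps between A and B.

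Cdkn1a has 2 annotated transcripts with separate first exons. The upstream start, beside the printed element, had 0.804 and 0.814 CPM on its first exon (116 bases) in knockout STZ 24 h and at most 0.23 CPM in the other 10 libraries, with none in 1 of them. The downstream start carried most of the signal: its first exon (90 bases) had 6.64 and 6.77 CPM in knockout STZ 24 h, 2.61 and 3.51 CPM in knockout STZ 4 wk and 0.982 to 2.33 CPM in the rest. Both starts were therefore highest in the same 2 libraries. The deposited TPM of the downstream transcript NM_007669 was 104 and 101 in knockout STZ 24 h, against 5.48 and 3.64 for NM_001111099.

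**Figure D2:**
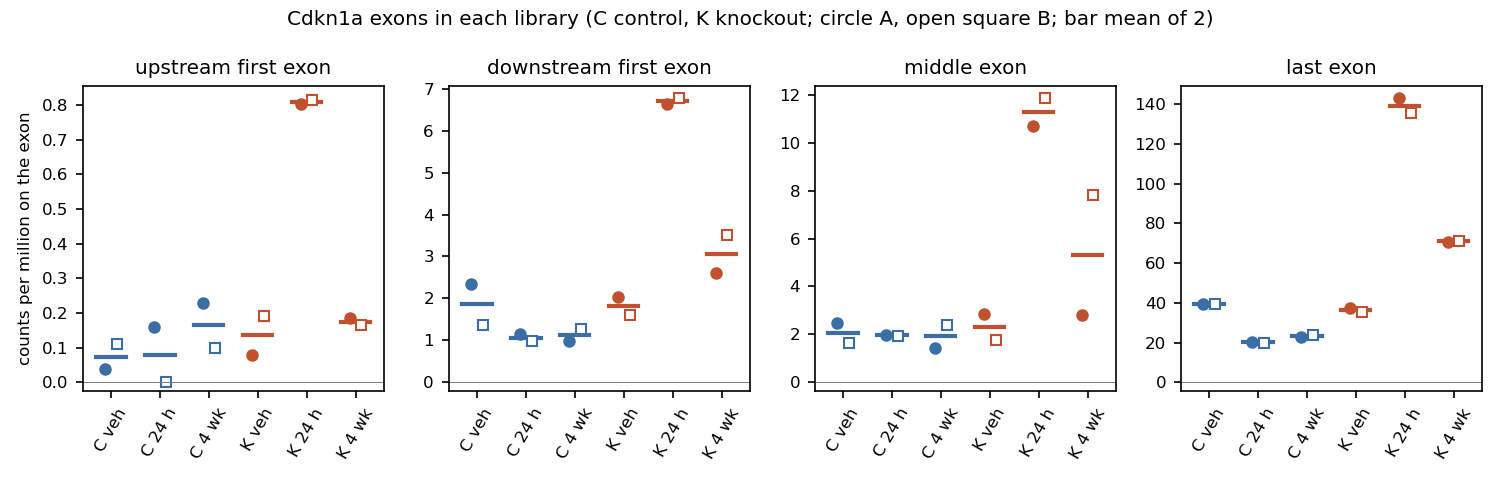
Estimated counts in CPM on each Cdkn1a exon in the 12 libraries (vertical axes from 0, 1 panel an exon; C control, K knockout; circles library A, open squares B, bars the mean of 2). Every exon is highest in knockout STZ 24 h, from 0.804 CPM on the upstream first exon to 143 CPM on the last exon.

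The 5 genes whose log2 CPM over the 12 libraries was most like that of Cdkn1a, out of 13150 with a mean of at least 2 CPM, were Rasgrp1 (Pearson r = 0.972), Lck (0.969), Bach2 (0.965), Lax1 (0.961) and Glycam1 (0.952). Rasgrp1, Lck, Bach2 and Lax1 act in lymphocytes, and Glycam1 is an L-selectin ligand of lymph node vessels. Lck averaged 12.3 CPM in knockout STZ 24 h, 4.48 CPM in knockout STZ 4 wk and at most 1.39 CPM in the other groups; Glycam1 averaged 39.4 CPM, 1.38 CPM and at most 0.337 CPM. The libraries share depth, scaling and the group structure, so these values are descriptions. Of the 9 other p53 targets, Phlda3 (0.789), Ccng1 (0.697) and Trp53inp1 (0.675) were most like Cdkn1a, and Sesn1 (0.147), Bbc3 (0.0635) and Zmat3 (-0.127) were least like it. Lymphocyte genes that are at 0 in both libraries of a group numbered 3 in control STZ 24 h (Cd3d, Cd3e and Cxcr5) and 5 in knockout vehicle, whereas all 11 were above 0 in knockout STZ 24 h and 4 wk.

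Between genotypes, 4 of the 10 genes were higher and 0 lower in knockout at STZ 24 h (4 and 0 at an unadjusted p under 0.05, 5 and 0 by DESeq2's Wald test), with a median log2 difference of 0.60. Over all 17411 genes tested, edgeR called 23.7% higher and 19.4% lower in that comparison. At 4 wk 3 were higher and 0 lower (3 and 1 unadjusted, 3 and 1 by the Wald test, median 0.45), against 19.9% and 7.89% of all genes. Under vehicle 0 were higher and 2 lower (1 and 2 unadjusted, 1 and 2 by the Wald test, median 0.19), against 1.96% and 7.68%. The median over all genes lay between -0.01 and 0.10 in all 11 comparisons.

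**Figure D3:**
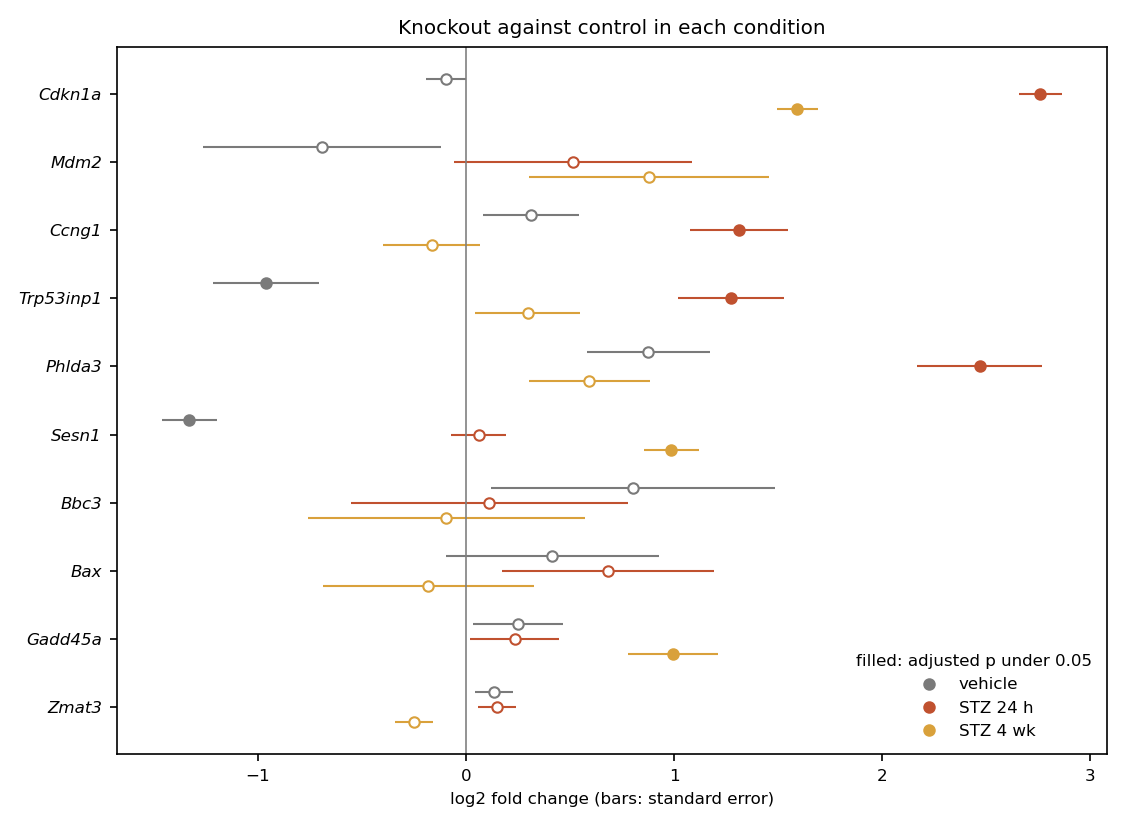
Log2 fold change of knockout against control for each gene under vehicle (grey), at STZ 24 h (red) and at STZ 4 wk (yellow), with standard errors as bars and filled points for adjusted p under 0.05. At STZ 24 h Cdkn1a (2.76), Phlda3 (2.47), Ccng1 (1.31) and Trp53inp1 (1.27) are filled, at 4 wk Cdkn1a, Sesn1 and Gadd45a.

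STZ against vehicle at 24 h called 0 of the 10 higher and 3 lower in control (1 and 4 unadjusted, 1 and 3 by the Wald test, median -0.18) against 5.41% and 2.15% of all genes. In knockout it called 4 higher and 0 lower (4 and 1 unadjusted, 4 and 0 by the Wald test, median 0.88) against 30.1% and 26.2%. At 4 wk against vehicle, 0 were higher and 2 lower in control (1 and 3 unadjusted, 1 and 3 by the Wald test, median 0.11; all genes 4.98% and 4.01%), and 3 higher and 1 lower in knockout (median 0.46; all genes 24.1% and 11.7%). In knockout at 24 h the share of the 10 genes called higher was thus near that of all genes, whereas none was called lower.

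From 24 h to 4 wk, control islets had 0 calls among the 10 in either direction in edgeR's test (1 higher and 0 lower unadjusted, 0 and 0 by the Wald test; all genes 1.27% and 4.22%), and knockout islets had 2 higher and 4 lower (median -0.63; all genes 20.2% and 15.5%). The STZ effect itself differed between genotypes for 5 genes at 24 h, all more positive in knockout (5 and 0 unadjusted, 5 and 0 by the Wald test, median 1.1; all genes 21.1% more positive and 16.6% more negative). It differed for 3 genes at 4 wk, again more positive in knockout (4 and 1 unadjusted, 3 and 1 by the Wald test, median 0.23; all genes 18.7% and 7.35%). The genotype comparisons at 24 h and the 2 STZ comparisons share libraries, so their calls are not separate evidence.

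**Figure D4:**
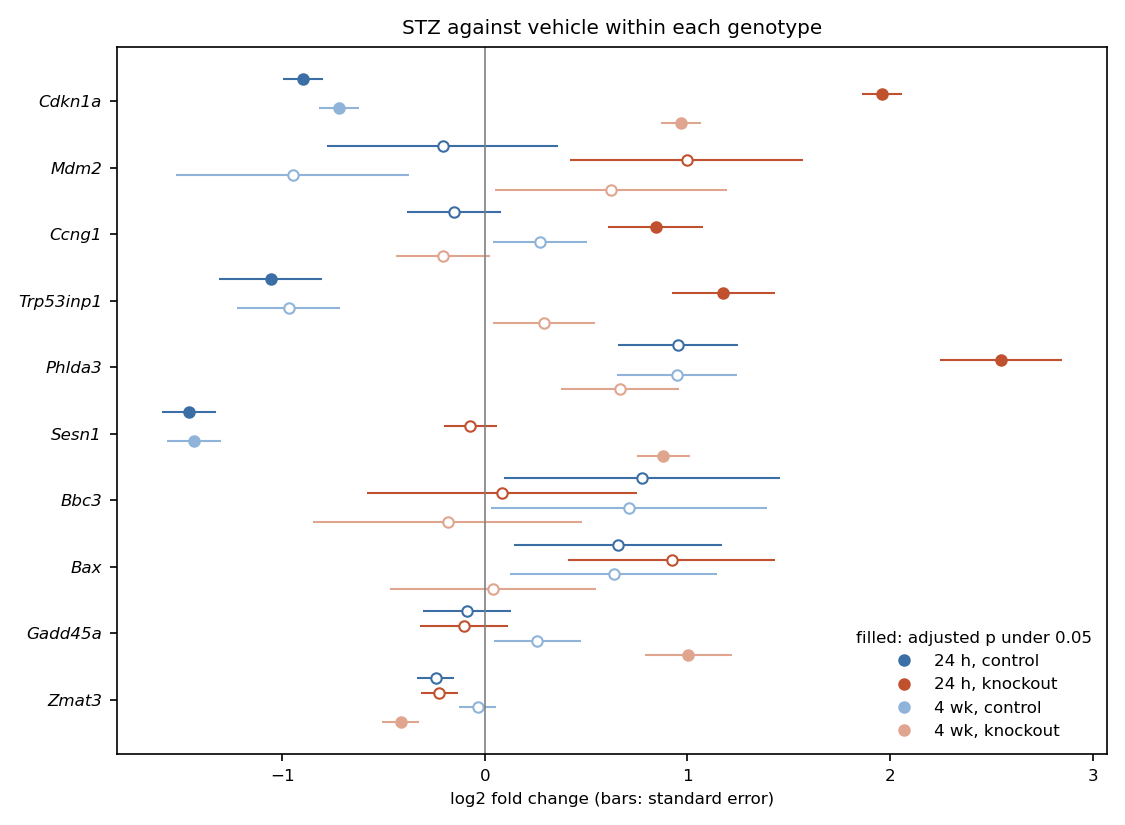
Log2 fold change of STZ against vehicle for each gene at 24 h (dark) and 4 wk (pale) in control (blue) and knockout (red) islets, with standard errors as bars and filled points for adjusted p under 0.05. Cdkn1a is filled below 0 in control (-0.90 and -0.72) and above 0 in knockout (1.96 and 0.97).

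Mdm2 (chr10:117688875-117710758, minus strand) encodes the ligase that marks p53 for degradation and is itself a p53 target, the classical feedback loop. Its deposited counts gave 60.3 and 61.1 CPM (vehicle), 53.8 and 51.2 CPM (STZ 24 h) and 15.2 and 47.7 CPM (STZ 4 wk) in control, and 57.8 and 17.4, 75.5 and 74.4, and 62.8 and 52.8 CPM in knockout. The 2 low libraries, control STZ 4 wk A and knockout vehicle B, lacked depth on 1 exon only. The last exon (chr10:117688875-117690785, 1911 bases, holding the 3′ end) had a mean depth of 0.0334 and 0.0874 there and 155 to 228 in the other 10 libraries, while the other exons had 88.7 to 138 over all 12. Of 15974 exons examined in 7075 genes, 87 in 85 genes fell to under 5% of their usual depth relative to the rest of the gene in 1 or more libraries, 4 to 31 a library. With the deposited counts Mdm2 passed in no comparison, and leaving out knockout vehicle A, which leaves the low library alone, brought STZ 24 h against vehicle in knockout to 2.11 (adjusted p = 0.0173) and the difference between genotypes to 2.31 at 24 h (adjusted p = 0.0369) and 2.68 at 4 wk (adjusted p = 0.0302). Without control STZ 4 wk B the latter was 2.62 (adjusted p = 0.0379).

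**Figure D5:**
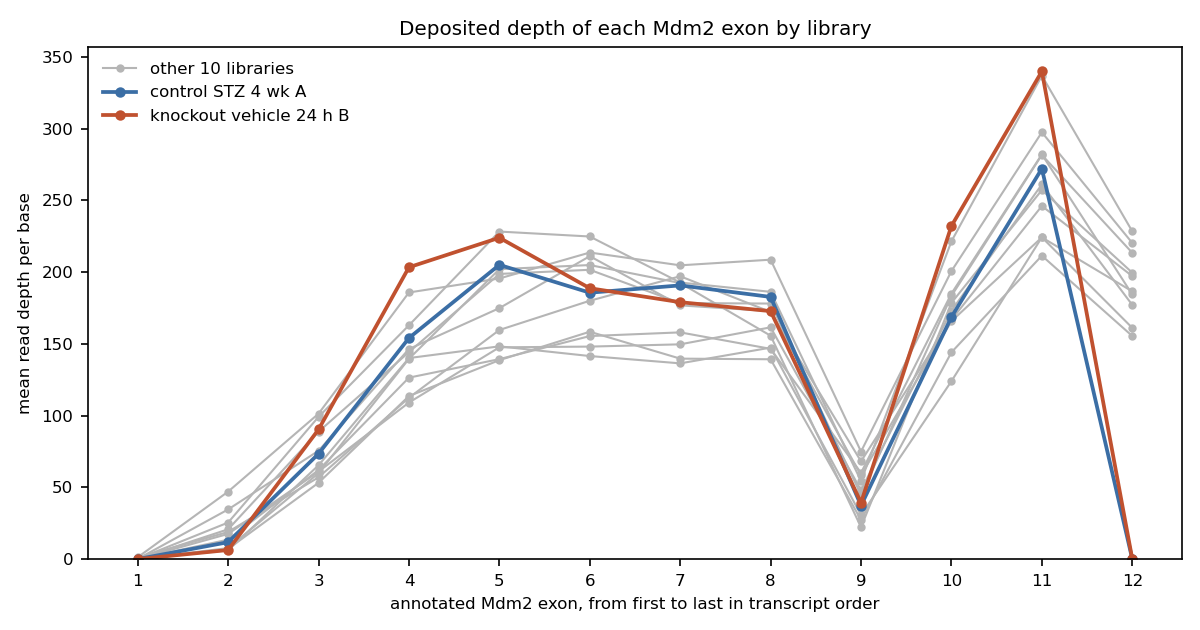
Deposited mean read depth per base on each annotated Mdm2 exon in transcript order, 1 line a library. Control STZ 4 wk A (blue) and knockout vehicle B (red) follow the other 10 libraries (grey) up to the last exon, where they drop from 272 and 340 to about 0.

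Counted without that exon, a choice made after the data were seen, Mdm2 was at 13.1 to 17.4 CPM in the 10 libraries outside knockout STZ 24 h and 19.6 and 20.8 CPM in that group. Knockout then exceeded control at STZ 24 h by 0.54 ± 0.13 on the log2 scale (adjusted p = 0.00961, both libraries higher), and knockout fell by 0.44 from 24 h to 4 wk (adjusted p = 0.0279). STZ 24 h against vehicle was 0.28 ± 0.13 in knockout (adjusted p = 0.0947) and -0.19 ± 0.13 in control (adjusted p = 0.508).

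Ccng1 (chr11:40748552-40755286, minus strand) encodes cyclin G1, which brings a phosphatase to MDM2 and so acts in the same feedback. Control islets had 114 and 125 CPM under vehicle, 109 and 105 at 24 h after STZ and 168 and 120 at 4 wk, and knockout islets had 124 and 172, 279 and 253 and 153 and 104 in the same order. Only knockout STZ 24 h stood clear of all other libraries. Knockout exceeded control 2.48-fold at 24 h (log2 1.31 ± 0.24, adjusted p = 0.00204), and STZ raised it 1.79-fold in knockout (log2 0.84 ± 0.23, adjusted p = 0.0136), a call that ended without knockout vehicle A (adjusted p = 0.0848) or knockout STZ 24 h A (0.0664). The difference between genotypes of the 24 h effect (1.0 ± 0.33, adjusted p = 0.0415) passed narrowly: without any 1 of 7 of the 8 libraries involved the adjusted p was 0.0774 to 0.119. By 4 wk Ccng1 in knockout had come down 2.07-fold (log2 -1.05 ± 0.23, adjusted p = 0.00807).

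Trp53inp1 (chr4:11156441-11174377, plus strand) encodes a stress-induced nuclear protein that favours phosphorylation of p53. Its CPM in control was 186 and 209 (vehicle), 100 and 89.5 (STZ 24 h) and 118 and 84.3 (STZ 4 wk), and in knockout 83.1 and 120, 241 and 218, and 151 and 97.4 for the same conditions. Control vehicle and knockout STZ 24 h were thus high and the other 4 groups low. At STZ 24 h knockout exceeded control 2.42-fold (log2 1.27 ± 0.26, adjusted p = 0.00371), and STZ raised it 2.26-fold in knockout (log2 1.18 ± 0.26, adjusted p = 0.00399). The difference between genotypes of the 24 h effect was 2.23 ± 0.36 (adjusted p = 0.00129). Acinar markers were also highest in control vehicle (367700 to 383600 CPM) and knockout STZ 24 h (375100 to 379000 CPM). They were at most 217600 CPM elsewhere, and their part in the Trp53inp1 values was not tested.

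The remaining Trp53inp1 calls lay close to the threshold, kept their direction with any 1 library left out, and were lost without any 1 of several libraries, which also lowers the power. Knockout was below control under vehicle (-0.96 ± 0.25, adjusted p = 0.0493), which became -1.04 (adjusted p = 0.134) without control vehicle A, -0.87 (0.224) without control vehicle B and -0.72 (0.247) without knockout vehicle A. STZ lowered it in control at 24 h (-1.06 ± 0.25, adjusted p = 0.0396), with -1.14 and -0.97 (adjusted p = 0.121 and 0.209) without control vehicle A or B and -1.14 and -0.97 (0.159 and 0.259) without control STZ 24 h A or B. Its drop from 24 h to 4 wk in knockout (-0.89 ± 0.25, adjusted p = 0.0249) became -0.81 (0.115) without knockout STZ 24 h A, -0.96 (0.0714) without B and -0.61 (0.101) without knockout STZ 4 wk B. The difference between genotypes at 4 wk (1.26 ± 0.36, adjusted p = 0.031) was 0.91 to 1.34 and no longer passed without control vehicle A (0.0658) or B (0.0995), control STZ 4 wk B (0.0918), knockout vehicle A (0.0893) or knockout STZ 4 wk A (0.0724).

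Phlda3 (chr1:135766085-135769134, plus strand) encodes a membrane-binding protein that competes with the kinase AKT and so represses survival signalling; it is known as a p53 target in islet cells. It was scarce in control, at 1.55 and 1.32 CPM under vehicle, 2.42 and 3.13 CPM 24 h after STZ and 2.20 and 3.34 CPM at 4 wk. In knockout it went from 3.09 and 2.17 CPM under vehicle to 14.5 and 16.3 CPM at STZ 24 h and returned to 3.35 and 5.01 CPM at 4 wk. Every library of the other 5 groups was below the knockout STZ 24 h libraries. Knockout exceeded control 5.54-fold at 24 h (log2 2.47 ± 0.30, adjusted p = 0.000233), STZ raised it 5.84-fold in knockout (log2 2.55 ± 0.30, adjusted p = 0.000115), and the level dropped 3.68-fold by 4 wk (log2 -1.88 ± 0.29, adjusted p = 0.00132).

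In control, Phlda3 was 0.95 ± 0.30 above vehicle at 24 h (adjusted p = 0.109) and 0.95 ± 0.30 at 4 wk (adjusted p = 0.0995), with no overlap of libraries. The difference between genotypes at 24 h was 1.59 ± 0.41 (adjusted p = 0.0152), and the adjusted p was 0.056 without control vehicle A, 0.063 without control STZ 24 h A, 0.0511 without knockout vehicle B and 0.0526 without knockout STZ 24 h B. STZ 4 wk against vehicle in knockout (0.67 ± 0.29, adjusted p = 0.108) passed without knockout STZ 4 wk A (0.93, adjusted p = 0.0439).

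Zmat3 (chr3:32334794-32365665, minus strand) encodes an RNA-binding zinc finger protein that p53 uses to alter splicing. It was the steadiest of the 10, between 30.1 and 42.2 CPM, in control 37.9 and 37.4 under vehicle, 32.5 and 31.0 at 24 h and 38.2 and 35.2 at 4 wk after STZ, in knockout 40.3 and 42.2, 35.8 and 34.7, and 31.7 and 30.1. Its 1 call was a drop of 1.33-fold from vehicle to 4 wk in knockout (log2 -0.42 ± 0.09, adjusted p = 0.00704). That call was lost when only the compared groups were fitted. Scaling to pan-endocrine genes gave the other sign, with the median of all genes at 0.79. At STZ 24 h knockout minus control was 0.15 ± 0.09 (adjusted p = 0.221), where Cdkn1a differed by 2.76.

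Sesn1 (chr10:41810574-41908436, plus strand) encodes sestrin 1, which limits oxidative damage and restrains the growth kinase mTORC1, and followed another course. It stood at 99.9 and 105 CPM in control vehicle and at 79.3 and 70.7 CPM in knockout STZ 4 wk. In the other 4 groups it lay between 34.5 and 44.1 CPM, with 37.3 and 44.1 in knockout islets under vehicle and 37.2 and 40.3 at 24 h after STZ, and 38.8 and 35.5 in control islets at 24 h and 41.2 and 34.5 at 4 wk. Both high groups stood clear of the other 4.

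Knockout islets had 2.51-fold less Sesn1 under vehicle (log2 -1.33 ± 0.13, adjusted p = 0.000267), a level close to that of control islets after STZ, and 1.98-fold more at 4 wk (log2 0.99 ± 0.13, adjusted p = 0.000586). STZ lowered it 2.76-fold at 24 h (adjusted p = 0.000133) and 2.71-fold at 4 wk (adjusted p = 0.000177) in control. In knockout it was not changed past the threshold at 24 h (-0.07 ± 0.13, adjusted p = 0.661) and was raised 1.84-fold at 4 wk (log2 0.88 ± 0.13, adjusted p = 0.000796), and it rose 1.94-fold from 24 h to 4 wk (log2 0.95 ± 0.13, adjusted p = 0.000649). The effect of STZ was more positive in knockout by 1.39 ± 0.19 at 24 h (adjusted p = 0.000431) and by 2.32 ± 0.19 at 4 wk (adjusted p = 3e-05). The first exon of the long transcript (727 bases) had 1.39 and 1.69 CPM in knockout STZ 24 h and 2.07 to 4.11 CPM in the other 10 libraries, and the short transcript's first exon had at most 0.137 CPM anywhere. Acinar markers were at 367700 to 383600 CPM in control vehicle and at 375100 to 379000 CPM in knockout STZ 24 h, and their part in the Sesn1 values was not tested.

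Gadd45a (chr6:67035096-67037407, minus strand) encodes a growth arrest and DNA damage response protein. It was at 12.3 and 10.5 CPM in knockout STZ 4 wk and between 4.40 and 6.82 CPM in the other 10 libraries, with 5.67 and 4.87 CPM in knockout STZ 24 h and 4.57 and 4.40 CPM in control STZ 24 h. Only the 4 wk knockout libraries stood apart. There it was 1.99-fold above control (log2 0.99 ± 0.22, adjusted p = 0.00872, but 0.062 without control STZ 4 wk B), 2.01-fold above vehicle (log2 1.0 ± 0.22, adjusted p = 0.00649) and 2.16-fold above 24 h (log2 1.11 ± 0.22, adjusted p = 0.00426). The difference between genotypes of the 4 wk effect was 0.75 ± 0.30 (adjusted p = 0.113), and it passed without knockout vehicle B (adjusted p = 0.0263). Intestinal markers were raised in the same libraries, to 10350 to 10830 CPM against at most 802 in the other groups, and their part in this rise was not tested. An antisense gene, E230016M11Rik, overlaps 19.4% of its exon bases, and counting used strand.

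Bax and Bbc3 are the death genes of the set: BAX forms pores in the mitochondrial outer membrane, and PUMA, encoded by Bbc3, is a BH3-only protein that frees it. Bax (chr7:45461695-45466898, minus strand) had 11.4 and 8.10 CPM under vehicle, 14.4 and 16.4 CPM at 24 h and 9.57 and 20.7 CPM at 4 wk after STZ in control, and 17.8 and 8.24, 23.1 and 26.3, and 7.85 and 18.9 CPM in knockout. Both knockout STZ 24 h libraries were above every other one, but A and B differed by up to 1.21 on the log2 scale within a group. Knockout minus control at STZ 24 h was 0.68 ± 0.51 (adjusted p = 0.318), and STZ 24 h against vehicle was 0.92 ± 0.51 in knockout (adjusted p = 0.156). Its drop from 24 h to 4 wk in knockout (-0.88 ± 0.51, adjusted p = 0.218) passed without knockout STZ 4 wk B (adjusted p = 0.0496).

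Bbc3 (chr7:16309583-16318334, plus strand) was the scarcest, with control values of 0.707 and 0.535 CPM (vehicle), 0.982 and 1.15 CPM (STZ 24 h) and 0.608 and 1.43 CPM (STZ 4 wk), and knockout values of 1.41 and 0.760, 1.04 and 1.26, and 0.330 and 1.57 CPM. Every group overlapped at least 1 other. Knockout minus control at STZ 24 h was 0.11 ± 0.67 (adjusted p = 0.911), and its standard errors were 0.665 to 0.952 over the 11 comparisons. The difference between genotypes of its 4 wk effect passed without knockout STZ 4 wk B (-2.43, adjusted p = 0.0489). Transcript GC was 68.6% for Bbc3, at the top of the genes measured, and 58.4% for Bax, at percentile 92.4, and their B minus A gaps at 4 wk were 0.80 and 1.08 in control and 1.32 and 1.21 in knockout. Ccng1 (37.4% GC) and Trp53inp1 (41.1%) had gaps of the other sign there (-0.49 and -0.48 in control, -0.56 and -0.63 in knockout), while Gadd45a, with 58.3% GC close to that of Bax, had gaps of -0.286 and -0.215, opposite in sign to those of Bax. The part of GC content in these gaps was not tested. Gene Gm45808 overlaps 22.1% of the exon bases of Bax on the same strand, so its counts could be split.

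Compared per length within a library, the order of the genes moved with the groups. In deposited TPM, control vehicle libraries had Trp53inp1 (mean 44.6), Sesn1 (42.3) and Ccng1 (41.8) at the top with overlapping libraries, then Cdkn1a (27.6), Mdm2 (23.9), Bax (13.6), Zmat3 (5.89), Gadd45a (4.74), Phlda3 (1.18) and Bbc3 (0.377), each clear of the next. In knockout STZ 24 h, Cdkn1a led at 107 with Ccng1 at 98.7, which overlapped it, ahead of Trp53inp1 (54.9), Bax (36.7), Mdm2 (31.4), Sesn1 (17.4) and Phlda3 (13.6). In knockout STZ 4 wk the means of Cdkn1a (68.5) and Ccng1 (61.6) came first with overlapping libraries, and Ccng1 was above Cdkn1a in library A. In control STZ 24 h Cdkn1a (18.2) overlapped Sesn1 (18.7) below the 4 leading genes. Phlda3 thus passed Zmat3 and Gadd45a only in knockout STZ 24 h.

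The p53 protein and its activity were not measured, and only the mRNA of its gene, Trp53, was counted. Trp53 was at 25.9 and 27.3 CPM in knockout STZ 24 h and between 10.7 and 16.1 CPM in the other 10 libraries. Knockout exceeded control at 24 h by 0.90 ± 0.21 on the log2 scale (adjusted p = 0.00806), STZ raised it in knockout by 1.03 ± 0.21 (adjusted p = 0.00303), and the difference between genotypes was 0.88 ± 0.30 (adjusted p = 0.046). Of the 10 genes of p53 and its regulators, 2 were higher and 2 lower in knockout at STZ 24 h, near the shares of all genes (23.7% and 19.4%). The checkpoint kinase Chek2 rose (1.73 ± 0.22, adjusted p = 0.000297), and Trp53bp1 (-0.98 ± 0.10, adjusted p = 7.2e-05) and the DNA damage kinase Atm (-0.95 ± 0.20, adjusted p = 0.00513) fell. Mdm4, the partner of MDM2, gave 18.5 to 125 CPM with wide gaps between A and B: its last exon (6121 bases) had a depth of 7.49 to 20.9 in 7 libraries and 114 to 167 in the other 5, so its level is not interpreted.

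The other p53 targets tested were 45 genes in 4 lists. In knockout against control at STZ 24 h, 23 were higher and 4 lower (median 0.55; all genes 23.7% and 19.4%). In STZ 24 h against vehicle 27 and 3 passed in knockout (median 0.92; all genes 30.1% and 26.2%), and 4 and 3 in control (median 0.10; all genes 5.41% and 2.15%). These comparisons share libraries. Among 13 genes of apoptosis and death receptors, 9 were higher and 0 lower in knockout at STZ 24 h in edgeR's test, with a median of 1.5. They include Pmaip1 (NOXA, log2 3.92 ± 0.37, adjusted p = 5.94e-05), the death receptor Fas (1.97 ± 0.20, adjusted p = 7.59e-05), Apaf1, the core of the apoptosome (1.60 ± 0.17), and the death receptor Tnfrsf10b (1.93 ± 0.21). Fas fell at 24 h in control (-0.86 ± 0.19, adjusted p = 0.0281), as Cdkn1a did. Pmaip1 and Fas are also expressed by leukocytes, whose markers were high in the same libraries. Pmaip1 was at 14.6 and 13.8 CPM in knockout STZ 24 h and at 23.3 and 16.3 CPM in knockout STZ 4 wk. Fas was at 15.8 and 13.1 CPM, then at 12.8 and 9.17 CPM. Lymphocyte markers summed to 359 to 360 CPM at 24 h and 33.5 to 35.3 CPM at 4 wk after STZ in knockout. Macrophage markers summed to 2028 to 2039 and 535 to 572 CPM in the same groups. The part of leukocytes in the Pmaip1 and Fas values was not tested.

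Among 10 cell cycle targets, 5 were higher and 1 lower in knockout at STZ 24 h, where 23.7% and 19.4% of all genes were. Gtse1 (2.31 ± 0.31, adjusted p = 0.000335), Sfn (3.61 ± 0.59, adjusted p = 0.00126) and Ckap2 (1.08 ± 0.32, adjusted p = 0.0235) rose, and Gadd45b (-1.15 ± 0.18, adjusted p = 0.00102) fell. Gtse1 and Ckap2 are known as genes of dividing cells, and Sfn encodes 14-3-3 sigma, which holds cells before mitosis. Among 8 repair and nucleotide genes 2 were higher and 1 lower, near those shares: Rps27l (1.12 ± 0.17, adjusted p = 0.000781) and Polk (0.75 ± 0.22) rose and the ribonucleotide reductase subunit Rrm2b (-0.89 ± 0.22, adjusted p = 0.0118) fell.

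Among 14 metabolic and stress targets, 7 were higher and 2 lower in knockout at STZ 24 h (all genes 23.7% and 19.4%). Ephx1, an epoxide hydrolase abundant in liver, rose by 2.36 ± 0.13 (adjusted p = 4.46e-06), and it also rose in control after STZ (1.73 ± 0.13, adjusted p = 4e-05). The glutaminase Gls2 rose by 1.46 ± 0.09 and the thiamine transporter Slc19a2 by 1.09 ± 0.13, while the fructose bisphosphatase Tigar fell by 1.11 (adjusted p = 5.97e-05). Of the 6 other CDK inhibitors (Cdkn1b, Cdkn1c, Cdkn2a, Cdkn2b, Cdkn2c and Cdkn2d), none passed in that comparison in edgeR's test. In knockout at 24 h after STZ, Cdkn1b fell by 0.87 and Cdkn2b by 0.72 and Cdkn1c rose by 0.65 ± 0.22, where Cdkn1a rose by 1.96. At 4 wk against vehicle in knockout 2 of the 6 were higher and 0 lower in edgeR's test: Cdkn1c rose by 1.06 ± 0.22 (adjusted p = 0.00477) and Cdkn2b by 0.85 ± 0.20 (adjusted p = 0.00839), where Cdkn1a rose by 0.97. These 4 wk values were added after they had been seen.

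The direction of these results was checked under other scalings. Scaling to pan-endocrine genes moved the median of all genes in knockout against control by -0.38 under vehicle, 1.73 at STZ 24 h and 0.68 at 4 wk, and scaling to total counts by 0.53, -0.24 and -0.08. A scaling factor moves every gene and the median together, so a value relative to the median does not depend on it. Not set against the median, all 10 genes were called higher in knockout at STZ 24 h under pan-endocrine scaling and 14352 of all genes were higher against 108 lower, where the TMM split was 4119 and 3372. Total counts gave 3318 higher and 5183 lower there, and 6221 and 984 under vehicle against 342 and 1337. Among the 10 genes they called 5 higher and 1 lower under vehicle, where TMM called 0 and 2. For STZ 24 h against vehicle in knockout they called 3 and 3 (all genes 4085 and 7563), where TMM called 4 and 0. The calls under vehicle and in that comparison thus depend on the scaling.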

How the data were processed

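Islet RNA was made into strand-specific poly(A) libraries and sequenced as paired reads, per the labels' protocols. The authors deposited estimated counts per gene and, per library, transcript and exon coverage (mean read depth) and TPM from StringTie 1.3.6 with a fixed mm10 RefSeq annotation, per the file headers; the genome is mm10, per the submitters' processing notes, and which aligner was run is not given in the sources that were used here. The counts equal coverage times length divided by 75 (105 of 105 transcripts within 1 count), while the labels give reads of 100 bases, so counts are on a nominal scale.

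The 24421 genes were filtered with filterByExpr to 17411, scaled with TMM (factors 0.825 to 1.21) and fitted in edgeR 4.0.16 (R 4.3.3; quasi-likelihood test, all 12 libraries, 6 groups, 6 residual degrees of freedom), with Benjamini-Hochberg adjusted p over all genes and a threshold of 0.05, for 11 comparisons. Tables and figures were made with Python 3.11.15, pandas 2.3.3, numpy 2.4.6 and matplotlib 3.10.9. Levels are CPM, counts divided by the scaled library size. With 2 libraries against 2, an exact permutation test of a single value cannot reach 0.05, so p-values rest on the spread pooled over genes and groups. That spread was uneven. Chi-square per degree of freedom between A and B was 44.2 in control vehicle, 24.5 in control STZ 24 h and 39.8 in knockout STZ 24 h. It was 266 in knockout vehicle, 318 in control STZ 4 wk and 462 in knockout STZ 4 wk. A shared spread can thus be too small for comparisons with the last 3 groups. Scripts were tested on simulated data. GENCODE release M21 gave gene overlaps and GC content. Genes named are all 10 members, the 5 most like Cdkn1a, Trp53 and Mdm4, and up to 4 genes with the smallest adjusted p of each other p53 list at 24 h. The members and lists were chosen with earlier results of these data known. Alternatives were DESeq2 1.42.0 (size factors, Wald test), total-count and pan-endocrine scaling, no filter, a replicate block, the compared groups alone, no robust shrinkage, each library left out and, chosen after seeing the data, counts without exons that dropped out of single libraries.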

Additional observations from a re-analysis of the deposited data

Results flagged for a closer look

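The effect of STZ differed between genotypes, by the test of that difference itself, for 5 of the 10 genes at 24 h and 3 at 4 wk, all more positive in knockout, where 21.1% and 18.7% of all genes were called more positive, so the count at 4 wk is near the background. On the log2 scale the 24 h differences were 2.86 for Cdkn1a, 2.23 for Trp53inp1, 1.59 for Phlda3, 1.39 for Sesn1 and 0.996 for Ccng1. The 4 wk differences were 2.32 for Sesn1, 1.69 for Cdkn1a and 1.26 for Trp53inp1. These values and calls are on TMM scaling. With total counts 3 of the 10 genes were called more positive and 1 more negative at 24 h (all genes 2436 and 7708). At 4 wk the calls were then 2 and 2 (all genes 2371 and 5832), so the single direction depends on the scaling. With 2 libraries a group, no test for a library that stands apart could be made.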

How the results depend on the processing

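Of 36 called pairs of gene and comparison, 23 stayed past the threshold in every alternative run and 13 were lost in some alternative other than leaving out a library. Of these 13, 8 were also lost on leaving out some library. The causes were not tested. Over 517 values of these pairs, 466 kept side and direction, 48 no longer passed and 3 had the other sign. Of 74 uncalled pairs, 43 passed in at least 1 alternative. Knockout against control under vehicle (2 called, both lower) gave 1 with DESeq2 size factors, 1 without the filter and 1 to 2 with 1 library left out. With total counts it gave 6, of which 5 were higher and 1 lower. With pan-endocrine scaling the counts were 10 at STZ 24 h between genotypes (4 called), 5 at 4 wk (3), 10 for STZ 24 h in knockout (4), and 9 (5) and 6 (3) for the genotype differences at 24 h and 4 wk. STZ 4 wk in control (2, both lower) gave 4 with total counts (2 higher and 2 lower) and 4 with the Wald test (1 higher and 3 lower). Fitting only the compared groups gave 1 between genotypes at 4 wk (3) and 7 for STZ 24 h in control (3, all lower), of which 2 were higher and 5 lower. For STZ 4 wk in knockout (4) it gave 2, both higher, so the Zmat3 call was lost. The genotype difference at 24 h fell to between 3 and 5 with 1 library left out (3 without control vehicle A, control STZ 24 h A or knockout STZ 24 h B). Directions changed for Cdkn1a under vehicle with total counts (0.44, adjusted p = 0.00836) and, with pan-endocrine scaling, for Zmat3 at 4 wk against vehicle (0.37) and for Sesn1 (-0.21) and Gadd45a (-0.058) from 24 h to 4 wk, all 3 in knockout.

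The labels name nothing that libraries of the same letter have in common. The deviations of same-lettered libraries correlated between genotypes at 0.12 under vehicle, 0.049 at STZ 24 h and 0.48 at STZ 4 wk. At 4 wk the gap between B and A also correlated with GC at 0.72 in control and 0.77 in knockout. What same-lettered libraries share at 4 wk was not tested. A replicate block gave 1 call under vehicle and moved no other count by over 1.5 times. A replicate block within condition gave 4 under vehicle (2 higher and 2 lower) and 6 between genotypes at 4 wk (5 higher and 1 lower). It gave 6 for the 4 wk difference (4 more positive and 2 more negative in knockout). Bbc3 had the fewest counts of the 10 genes, 36 to 201 a library, which limits its precision.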
